A study of Mus musculus with 10 samples.

Results

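The 40 genes described here encode the enzymes and transporters of glycolysis and known responders to low oxygen. They were taken by gene name from a table of 72544 entries, 55418 of them with a gene name, and all 40 were found. RNA was sequenced from 10 mouse mammary carcinoma cell lines, with 1 library per line. The parental line, 4T1-hHER2, is a BALB/cfC3H mammary gland line that was given a stable human HER2 and luciferase construct by lentivirus. The other 9 lines descend from it and were grown out of NSG mice (strain label NOD-SCID-GAMMA, mice without functional lymphocytes) after injection into the mammary fat pad and spontaneous spread. They form 3 groups of 3 by the tissue of origin: the primary lines 5, 7 and 8 (fat pad tumour), the CTC lines 1, 3 and 6 (circulating tumour cells) and the metastasis lines 3, 5 and 7 (lung). The labels trace all 9, the primary lines included, back to CTCs that 4T1-hHER2-Luc tumours shed in mice. The HER2 and luciferase construct is thus common to all groups, and its level was not analysed here. Whether a line is a clone or a pool, and the oxygen level of the cultures, are not given in the sources used here. Values by line are always listed in the order just given.

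Glycolysis splits glucose into pyruvate in the cytosol, and lactate dehydrogenase turns pyruvate into lactate, which leaves the cell with protons. When oxygen is low, the prolyl hydroxylases of the Egln family no longer mark the hypoxia-inducible factor alpha subunits Hif1a and Epas1 for destruction. The stabilised subunits pair with Arnt, bind the short core ACGTG or GCGTG in DNA and raise transcription of glucose transporters, glycolytic enzymes, Car9, Vegfa and many other genes. Tumour cells often run this programme strongly, and many also keep glycolysis high when oxygen is present.

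The core is the sequence that the HIF subunits read, and stretches that hold it are given first. Of the 40 members, 35 had a transcription start in the RefSeq promoter table (GRCm38.p6), and 31 of these (88.6%) held ACGTG or GCGTG, on either strand, in the 250 bases before at least 1 start. Among all protein-coding genes of that table the share was 47.1%. At least 2 cores were found for 21 members (60%), against 22.5% of protein-coding genes. A palindrome CACGTG counts once on each strand. Counted by start rather than by gene, 75.5% of the 53 member starts and 44.0% of the starts of protein-coding genes held a core. Car12, Eno2, Gpi1 and Tpi1 had none in this window, and Slc2a3, Epas1, Bnip3l, Ndrg1 and Angptl4 had no start in the table. The stretches of 30 bases below surround the core nearest to a start, for members whose values are described further on. They are read 5′ to 3′ on the strand of the gene, and capitals mark each core or its reverse complement.
Slc2a1 (chr4:119108697-119108726, plus strand): gtcccgccccggACGTGctccccaggcccc
Pfkl (chr10:78009889-78009918, minus strand): atttgtagactgGCGTGcgctccgcctttc
Aldoa (chr7:126799363-126799392, minus strand): tgtggctcgagtCACGTcctagcggggcgg
Gapdh (chr6:125165800-125165829, minus strand): caCACGCttggtGCGTGcacatttcaaaaa
Eno1 (chr4:150237123-150237152, plus strand): ttggagtgatggCACGCtgagccaatgggg
Pkm (chr9:59657140-59657169, plus strand): ctccgatccggtCACGTccgcgccgcagca
Vegfa (chr17:46025357-46025386, minus strand): ggagtGCGTGccCACGTcagagagcaacat
Car9 (chr4:43506996-43507025, plus strand): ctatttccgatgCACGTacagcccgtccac
Egln3 (chr12:54204086-54204115, minus strand): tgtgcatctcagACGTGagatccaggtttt
Ankrd37 (chr8:45999851-45999880, minus strand): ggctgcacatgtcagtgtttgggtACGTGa

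The distance to the start varied widely. The core of Car9 begins 18 bases before its start and that of Ankrd37 6 bases before, while the nearest core of Egln3 lies 229 bases and that of Vegfa 211 bases before. Aldoa, Pkm and Vegfa have several starts in the table, and the window of the start farthest upstream held no core. The stretches shown for them belong to starts further inside the gene. Ldha and Pgk1 are shown with the whole window because both hold several cores and their levels by line are described below. The upstream Ldha window held CACGTG at 2 places and 5 counted cores, and the Pgk1 window held 2 cores. A match is a description of the letters and not a bound site.
Ldha (chr7:46845554-46845803, plus strand): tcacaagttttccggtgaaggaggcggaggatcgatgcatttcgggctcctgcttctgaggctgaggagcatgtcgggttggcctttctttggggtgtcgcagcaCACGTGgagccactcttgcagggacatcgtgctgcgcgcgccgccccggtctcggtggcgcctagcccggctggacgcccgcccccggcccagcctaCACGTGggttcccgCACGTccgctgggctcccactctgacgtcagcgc
Pgk1 (chrX:106186850-106187099, plus strand): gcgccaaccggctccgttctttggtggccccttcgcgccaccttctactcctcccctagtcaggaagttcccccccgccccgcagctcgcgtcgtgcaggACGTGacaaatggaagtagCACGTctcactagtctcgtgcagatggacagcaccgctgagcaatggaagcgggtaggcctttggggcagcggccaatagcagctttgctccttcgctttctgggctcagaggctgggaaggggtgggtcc

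**Figure D1:**
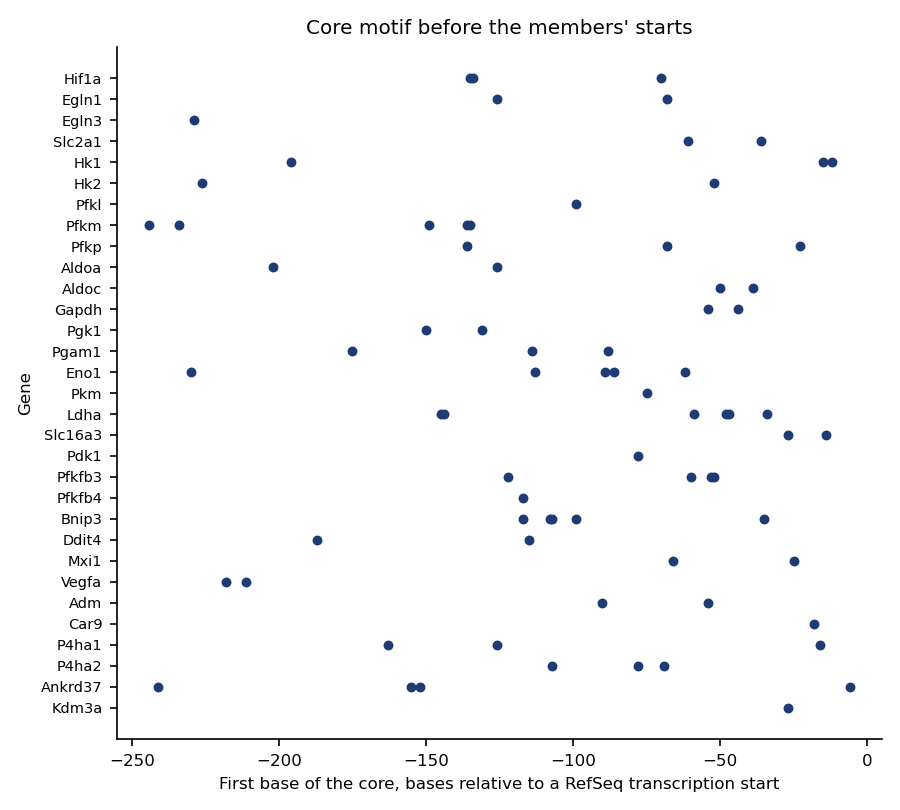
Position of each ACGTG or GCGTG core (either strand) before the RefSeq starts of the 31 members that held at least 1. The horizontal axis gives the first base of the core relative to the start, in bases, and each row is a gene. Cores of a gene with several starts are shown together, and they spread over the whole 250-base window.

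Each library held between 79869760 and 97722716 estimated counts, of which 19.7% to 22.8% were given to assembled transcripts tied to no gene. Those transcripts cannot be assigned to a gene here, and reads of a member may have been counted there, which would lower its listed level. Levels are CPM, that is counts relative to the library total after TMM correction for library composition. Keratins and other epithelial markers, 9 in all, summed to 1804 CPM in the parental library, 2163 to 3978 CPM in primary, 1576 to 2701 CPM in CTC and 1304 to 2945 CPM in metastasis lines. The mean was below that of the primary lines for 7 of the 9 in CTC and for 8 of the 9 in metastasis lines. Krt8 was higher in both, with means of 415 CPM in primary, 497 CPM in CTC and 555 CPM in metastasis lines. Krt18 was higher in CTC lines, at 1149 against 1116 CPM. The groups could overlap where means differed: Cldn4 was at 77.9 CPM in primary 5 and 78.2 CPM in metastasis 7. Epcam, an epithelial adhesion gene, had means of 131 CPM in primary, 24 CPM in CTC and 33.0 CPM in metastasis lines, and Cldn4, a tight junction gene, of 224, 27.5 and 46.4 CPM. The 6 leukocyte markers summed to at most 5.92 CPM and 6 red cell markers to at most 0.275 CPM. Of these, 1 of the 6 and 4 of the 6 were at 0 in all lines. The 6 macrophage markers summed to 6.03 CPM in the parental library and 12.3 to 18.4 CPM in primary lines. Their sums were 12.7 to 29.0 CPM in CTC and 9.45 to 30.2 CPM in metastasis lines, and Mertk reached 19.3 CPM in metastasis 3. Of 6 fibroblast markers, Pdgfra was at 4.45 CPM in the parental library, 58.1, 4.84 and 4.05 CPM in primary, 72.3, 141 and 10.1 CPM in CTC and 126, 269 and 11.3 CPM in metastasis lines. Dcn reached 12.4 CPM in metastasis 5 and no other of the 6 exceeded 2.32 CPM. The 13 mitochondrially encoded genes took 2.24% to 3.02% of the counts of named genes in the metastasis lines, 1.09% to 1.62% in primary lines, 1.01% to 2.12% in CTC lines and 1.67% in the parental library. Per kilobase of exon, Pkm was the most abundant member in 9 of the 10 lines, at 295 to 582 CPM per kilobase. Ldha was the most abundant in primary 7, at 709 CPM per kilobase. This ranking counts each gene's own entry alone. Annotated near copies of Gapdh, described below, held 69.7% to 71.0% of the summed counts of Gapdh and its copies. With them added Gapdh could rank first, and that order was not computed.

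No member passed the test in any of the 4 comparisons at an adjusted p under 0.05 (edgeR's quasi-likelihood test over 19936 named genes). Of the 40, 39 passed the filter on low counts and were tested. Lines within a group differed widely, with a common biological coefficient of variation of 0.606, and each p-value measures only the spread between these lines. In bulk RNA, fewer cells that express a gene and less of its RNA per cell cannot be told apart. The 4 comparisons share lines, so they are not independent of each other. The counts below at an unadjusted p under 0.05, and of members whose groups do not overlap, are therefore given beside the same share over all genes tested. Because the contrast with the parental line rests on 1 library without a replicate, that library is assumed to vary like the others.

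**Figure D2:**
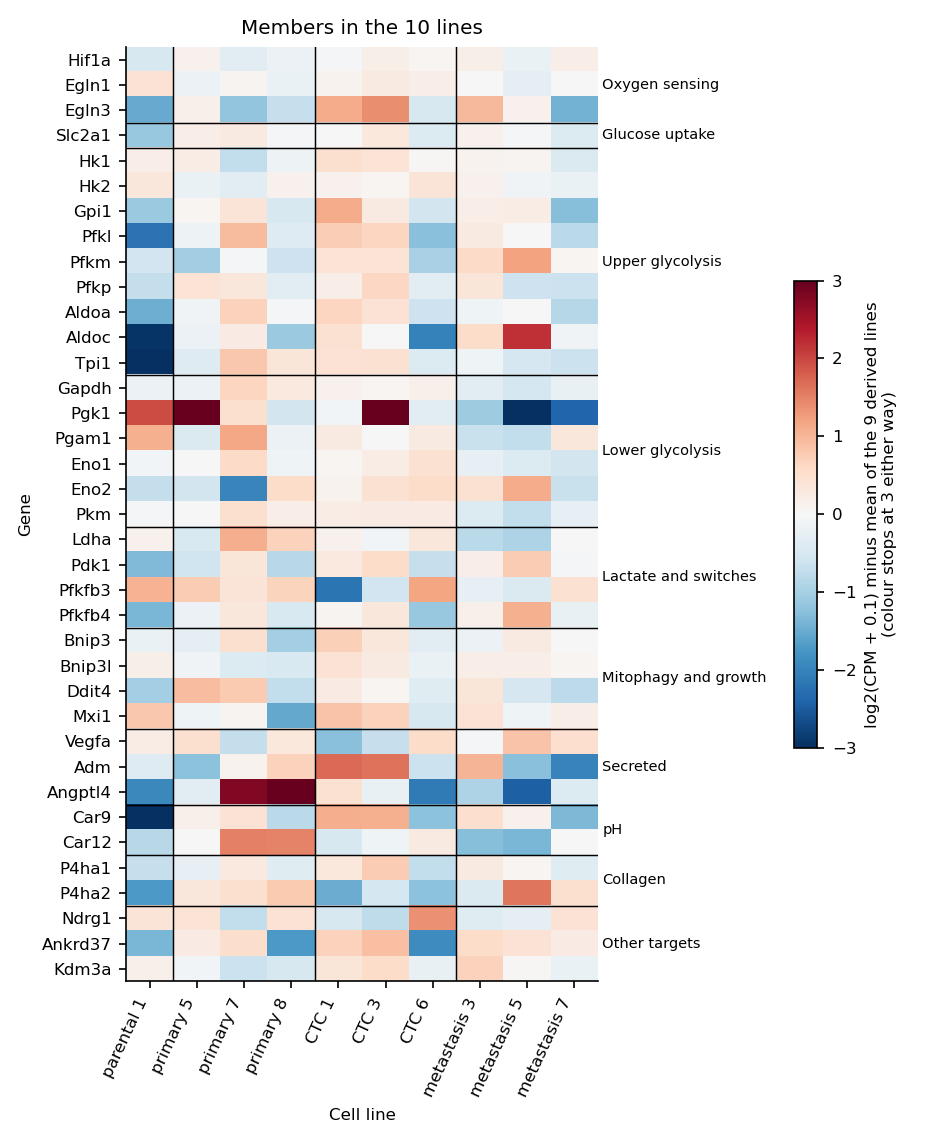
Level of 37 members in the 10 lines, as log2(CPM + 0.1) minus the mean of the 9 derived lines. Rows are genes grouped by role and columns are lines. Epas1, Slc2a3 and Slc16a3 stayed under 1 CPM and are left out. The lower part of glycolysis is blue in the 3 metastasis columns for Gapdh, Pgk1, Eno1 and Pkm, and the parental column is dark blue for Car9, Tpi1 and Aldoc.

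The oxygen-sensing members were led by Hif1a. Hif1a, the subunit that oxygen destabilises, was at 252 CPM in the parental library, at 388, 287 and 314 CPM in the primary lines, at 344, 399 and 369 CPM in the CTC lines and at 399, 309.7 and 405 CPM in the metastasis lines. The parental library was the lowest, and the 3 derived groups overlapped. Epas1, the other alpha subunit, had at most 25 counts in a library (metastasis 5), 0 in 5 of the 10 and at most 0.325 CPM. Egln1, the main prolyl hydroxylase, lay between 122 CPM (metastasis 5) and 176 CPM (CTC 3) in derived lines and at 200.3 CPM in the parental library. Egln3, a hydroxylase that is itself induced by HIF, spread much further. It was at 47.5 CPM in the parental library, 152, 60.1 and 83.9 CPM in the primary lines, 296, 358 and 98.6 CPM in the CTC lines and 270.2, 150.5 and 50.9 CPM in the metastasis lines. CTC 1, CTC 3 and metastasis 3 were high and metastasis 7 was close to the parental value, a ratio of 7.04 between the highest and the lowest derived line, and the groups overlapped.

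Of the 2 listed glucose transporter genes, Slc2a1 was the abundant member. Slc2a1, the widespread glucose transporter GLUT1, was at 55.1 CPM in the parental library, at 138, 144 and 116 CPM in the primary lines, at 121, 151 and 91.2 CPM in the CTC lines and at 131, 118 and 89.9 CPM in the metastasis lines. All 9 derived lines lay above the parental library, and the derived groups overlapped. The high-affinity transporter gene Slc2a3 had 4 counts in each metastasis line and 0 counts in the other 7 libraries, and it was not tested.

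Of the 9 upper enzymes of glycolysis, from hexokinase to triose phosphate isomerase, 5 had every derived line above the parental library, and none passed the test. Among all genes tested, 29.5% had all derived lines above or all below that single library. Tpi1, which interconverts the triose phosphates, was at 46.4 CPM in the parental library and at 341, 784 and 573 CPM in primary, 597, 609 and 332 CPM in CTC and 406, 313 and 282 CPM in metastasis lines. Pfkl, the liver-type phosphofructokinase that commits sugar to glycolysis, was at 46.5 CPM in the parental library and at 193, 413 and 165 CPM in primary, 359, 338 and 90.5 CPM in CTC and 258, 219 and 124 CPM in metastasis lines. The main aldolase gene Aldoa was at 323 CPM in the parental library and at 828, 1432 and 875 CPM in primary, 1398, 1213 and 581 CPM in CTC and 811, 877 and 492 CPM in metastasis lines. In each of these 3 genes every derived line lay above the parental library, and CTC 6 and metastasis 7 were among the 3 lowest derived lines. Aldoc, the brain-type aldolase, was at 1.47 CPM in the parental library and at 10.5, 14.1 and 5.51 CPM in primary, 16.5, 11.9 and 2.87 CPM in CTC and 17.7, 54.5 and 11.1 CPM in metastasis lines. Its ratio of 19.0 between metastasis 5 and CTC 6 was the widest among the upper enzymes. Pfkm, the muscle-type phosphofructokinase, had a different order: 21 CPM in the parental library, 15.2, 30.2 and 20.4 CPM in primary, 41.5, 41.8 and 15.8 CPM in CTC and 46.2, 72.4 and 32.5 CPM in metastasis lines. The metastasis lines all lay above the primary lines for Pfkm. The hexokinases had the narrowest ranges, Hk1 between 110.4 and 261 CPM and Hk2 between 110.0 and 182 CPM in derived lines. Gpi1, the glucose phosphate isomerase, ranged from 120.0 CPM (metastasis 7) to 627 CPM (CTC 1), and Pfkp from 74.5 to 179 CPM.

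Of the 6 genes of the lower enzymes, which harvest ATP, 4 had all metastasis lines below all primary and all CTC lines, and none passed the test. Over all genes tested, groups did not overlap for 13.6% in metastasis against primary and for 8.28% in metastasis against CTC. The share of all genes for both at once was not computed. Pkm, the pyruvate kinase gene, was at 2361 CPM in the parental library, at 2415, 3431 and 2841 CPM in primary, 2852, 2908 and 2902 CPM in CTC and 1855, 1477 and 2056 CPM in metastasis lines. Eno1, the main enolase, was at 1501 CPM in the parental library, at 1577, 2373 and 1461 CPM in primary, 1658, 1838 and 2170 CPM in CTC and 1334, 1193 and 1085 CPM in metastasis lines. Gapdh, the glyceraldehyde phosphate dehydrogenase often used as a reference gene, was at 700.4 CPM in the parental library, at 705, 1241 and 967 CPM in primary, 874, 819.7 and 879 CPM in CTC and 622, 549 and 674 CPM in metastasis lines. For Pkm, Eno1 and Gapdh the 3 metastasis lines lay below all 3 primary and all 3 CTC lines, and below the parental library. Pgk1, which makes ATP from bisphosphoglycerate, was at 130.1 CPM in the parental library, at 492, 47.2 and 23.0 CPM in primary, 31.7, 292 and 26.3 CPM in CTC and 15.9, 3.98 and 6.35 CPM in metastasis lines. Primary 5 and CTC 3 stood far above the rest, a ratio of 124 between primary 5 and metastasis 5, and the metastasis lines were again the lowest. How many Pgk1 reads went to assembled transcripts cannot be read from the table. Pgam1, the phosphoglycerate mutase, ranged from 252 CPM (metastasis 5) to 939 CPM (primary 7) in derived lines with overlapping groups. Eno2, the neuronal enolase, went the other way, with means of 11.3 ± 8.81 CPM in primary, 18.3 ± 2.87 CPM in CTC and 19.7 ± 10.9 CPM in metastasis lines (SD, n = 3), and metastasis 5 was its highest line at 30.8 CPM.

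Near-identical copies make the levels of 3 of these lower enzymes uncertain. Copies of Pkm and Pgam1 were also found but held at most 0.678% and 1.57% of the sum of gene and copies. Annotated genes that match the Gapdh transcript, 173 in all, held 69.7% to 71.0% of the summed counts of Gapdh and its copies in every line. With the copies added, the sum was 2431, 4094 and 3261 CPM in primary, 2907, 2804 and 2984 CPM in CTC and 2102, 1859 and 2290.4 CPM in metastasis lines, so that the metastasis lines remained below the others. For Eno1, whose 6 copies held 5.16% (CTC 3) to 34.6% (metastasis 3) of the sum, the totals were 2057, 3255 and 2046 CPM in primary, 2239, 1937 and 2855 CPM in CTC and 2041, 1789 and 1559 CPM in metastasis lines. Metastasis 3 then lay just under primary 8 and above CTC 3. The Pgk1 copies, 4 in all, reached 85.0 CPM (primary 7) and 87.0% of the sum (metastasis 7). The log2 change from primary to metastasis with copies added was -0.65 (SE 0.22) for Gapdh, -0.45 (SE 0.26) for Eno1 and -2.79 (SE 0.82) for Pgk1.

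**Figure D3:**
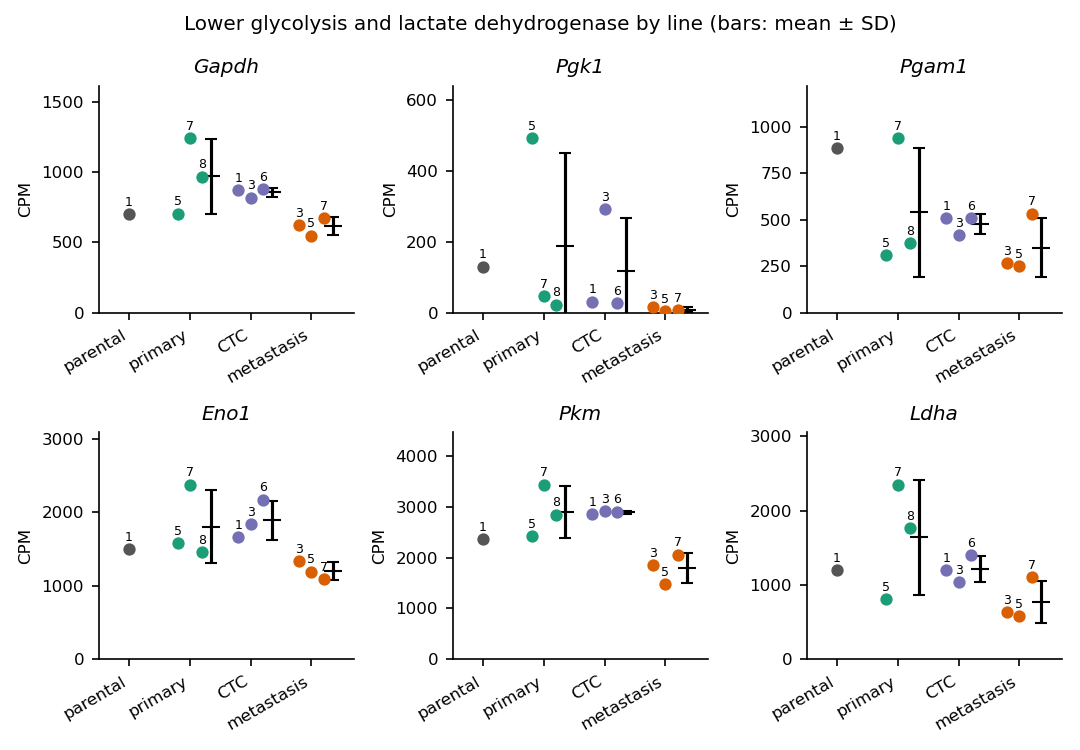
CPM of 5 lower enzymes and Ldha in each line, on linear axes from 0. Points are lines, labelled with their number, and black bars give mean ± SD of the 3 lines of a group, stopping at 0. For Gapdh, Eno1 and Pkm the metastasis points lie below all points of the other groups, while the Pgam1 and Ldha points of metastasis 7 overlap the primary range.

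Pkm makes 2 enzymes from exons used in place of each other: M1, the constitutively active form of muscle, and M2, the regulated form typical of tumours. The exons, of 167 bases each, differ at 64 positions (61.7% identical), which lets reads tell the transcripts apart. They are shown 5′ to 3′ on the plus strand of GRCm38, with differing bases in capitals.
M1 (chr9:59675029-59675195): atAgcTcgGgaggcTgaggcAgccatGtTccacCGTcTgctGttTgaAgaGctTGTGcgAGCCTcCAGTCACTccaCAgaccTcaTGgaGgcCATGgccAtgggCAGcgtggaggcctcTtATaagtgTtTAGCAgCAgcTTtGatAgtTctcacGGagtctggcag
M2 (chr9:59675568-59675734): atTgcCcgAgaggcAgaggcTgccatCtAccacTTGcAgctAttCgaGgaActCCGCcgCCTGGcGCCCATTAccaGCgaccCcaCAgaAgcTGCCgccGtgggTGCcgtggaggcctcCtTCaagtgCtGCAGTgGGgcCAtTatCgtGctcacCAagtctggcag

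M2 transcripts dominated in every line. Transcripts with the M1 exon held 17.7% of the counts of both kinds in the parental library, 20.8%, 9.71% and 9.67% in the primary lines, 12%, 17.8% and 11.3% in the CTC lines and 11.5%, 14.3% and 16.6% in the metastasis lines. The group means were 13.4% ± 6.41 (SD, n = 3), 13.7% ± 3.57 (SD, n = 3) and 14.1% ± 2.55 (SD, n = 3), closer to each other than the lines within a group. The shares did not separate the groups, unlike the total Pkm level. These shares are StringTie's estimates and carry its error in dividing reads between transcripts.

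At the pyruvate branch, Ldha spread 4.05-fold between derived lines, wider than Pkm (2.32-fold) or Eno1 (2.19-fold). Ldha, the main lactate dehydrogenase subunit gene, was at 1196 CPM in the parental library, at 806, 2346 and 1761 CPM in primary, 1202, 1041 and 1396 CPM in CTC and 630.4, 579.8 and 1102 CPM in metastasis lines. Metastasis 3 and 5 were the lowest, but metastasis 7 lay above primary 5, so the groups overlapped. Slc16a3, the lactate exporter induced by hypoxia, had 0 counts in the parental library and 6 to 29 counts in derived lines, at most 0.380 CPM. A floor of 3 counts was chosen for the parental library. Against that floor the derived mean of 0.224 CPM was 5.28-fold higher, and the true ratio is not known. Pdk1, the kinase that keeps pyruvate out of mitochondria, ranged from 24.9 CPM (primary 8) to 74.6 CPM (metastasis 5) and was at 17.5 CPM in the parental library. Pfkfb3, which makes the sugar phosphate that activates phosphofructokinase, was at 59.4 CPM in the parental library, at 48.4, 37.3 and 45.5 CPM in primary, 6.19, 19.2 and 65.6 CPM in CTC and 24.1, 21.3 and 39.4 CPM in metastasis lines. CTC 1 and CTC 6 stood at its opposite ends. Its relative Pfkfb4 lay between 2.82 and 13.3 CPM.

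Car9 and Car12 act in acid handling, and Angptl4, Vegfa and Adm encode secreted factors. Car9, the membrane carbonic anhydrase that is a standard hypoxia marker, was at 2.25 CPM in the parental library, at 41.6, 51.0 and 21.6 CPM in primary, 80.2, 79.1 and 15.9 CPM in CTC and 53.2, 40.8 and 14.7 CPM in metastasis lines. Every derived line exceeded the parental library, and the derived median was 18.5 times its level. Car12, another membrane carbonic anhydrase, was at 19.4 CPM in the parental library, at 34.1, 98 and 96.8 CPM in primary, 24.9, 31.3 and 41.1 CPM in CTC and 14.1, 13.2 and 34.7 CPM in metastasis lines. Primary 7 and 8 were high, while primary 5 lay just under metastasis 7. Angptl4, a secreted inhibitor of lipoprotein lipase, was at 0.170 CPM in the parental library, at 0.725, 7.02 and 9.66 CPM in primary, 1.33, 0.790 and 0.137 CPM in CTC and 0.445, 0.0911 and 0.682 CPM in metastasis lines. Primary 7 and 8 again stood out, and the low values rest on few counts (7 in metastasis 5). Vegfa, the endothelial growth factor, was at 178 CPM in the parental library, at 212, 92.1 and 188 CPM in primary, 63.2, 94.1 and 225 CPM in CTC and 147, 275 and 215 CPM in metastasis lines, with overlapping groups. Adm, the vasodilator adrenomedullin, ranged from 1.92 CPM (metastasis 7) to 26.4 CPM (CTC 1).

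P4ha1 and P4ha2 encode subunits of collagen prolyl hydroxylase. P4ha2 was at 3.47 CPM in the parental library, at 14.8, 16.3 and 20.0 CPM in primary, 4.04, 8.01 and 4.94 CPM in CTC and 8.58, 35.5 and 16.4 CPM in metastasis lines. The CTC lines lay below all lines of the other derived groups. P4ha1 ranged from 61.7 CPM (CTC 6) to 177 CPM (CTC 3). Among genes of mitophagy and growth restraint, Mxi1, a Myc antagonist, was at 89.6 CPM in the parental library, at 47.3, 54.8 and 17.6 CPM in primary, 92.9, 82.5 and 37.1 CPM in CTC and 69.4, 46.8 and 59.7 CPM in metastasis lines. Primary 8 was its lowest line. The mitophagy receptor genes Bnip3 and Bnip3l ranged from 25.9 to 85.4 CPM and from 144 to 267 CPM in derived lines, and Ddit4, an inhibitor of mTOR signalling, from 72.2 to 234 CPM. Ankrd37, a small HIF target, was at 0.439 CPM in the parental library, at 1.53, 1.89 and 0.316 CPM in primary, 2.15, 2.48 and 0.274 CPM in CTC and 1.92, 1.76 and 1.54 CPM in metastasis lines. Primary 8 and CTC 6 lay below the parental library for Ankrd37, which had at most 161 counts. Ndrg1, a stress and differentiation gene, ranged from 403 CPM (CTC 3) to 1763 CPM (CTC 6), and the histone demethylase gene Kdm3a from 45.4 to 114 CPM.

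**Figure D4:**
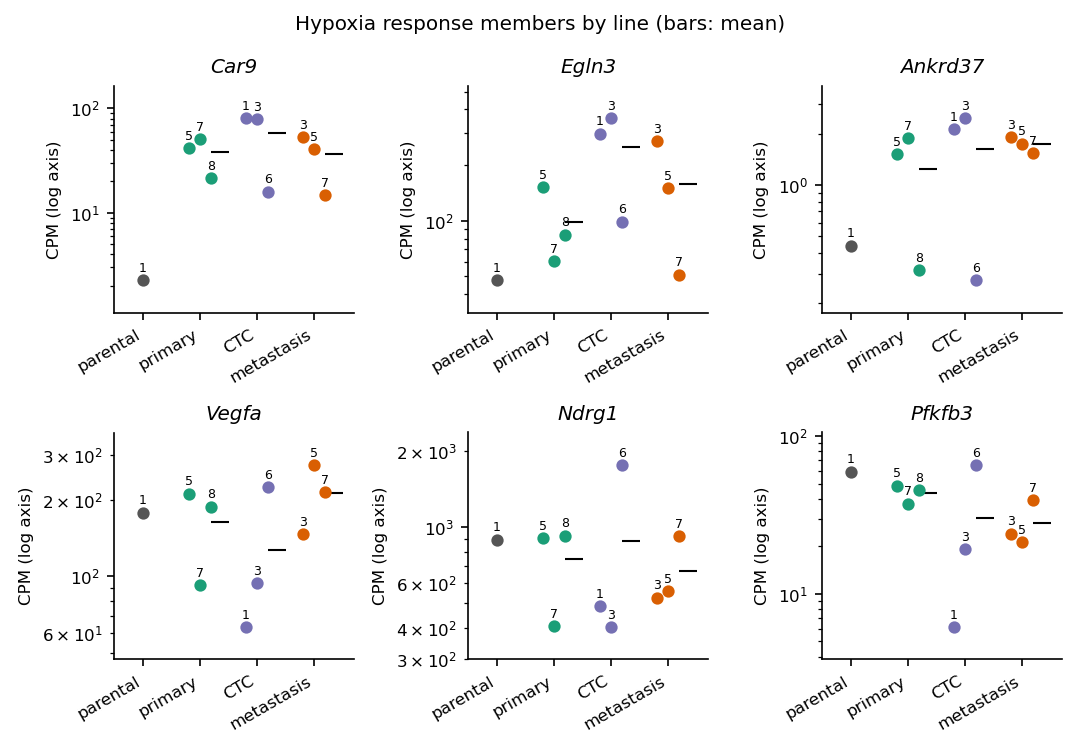
CPM of 6 hypoxia response members in each line, on log axes. Points are lines, labelled with their number, and black bars are the means of 3 lines. CTC 6 is the lowest CTC line for Car9, Egln3 and Ankrd37 and the highest for Vegfa, Ndrg1 and Pfkfb3.

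Lines of a group differed in a way that split the hypoxia responders. CTC 1 and CTC 3 were both at least 1.5-fold above CTC 6 for 17 of the 39 tested members (43.6%), against 24.3% of all genes tested. These 17 included Car9, Egln3, Ankrd37, Adm, Aldoc, Pfkl and Pdk1. They were both at least 1.5-fold below CTC 6 for 4 members (10.3%), against 21.8% of all genes, and these were Vegfa, Ndrg1, Pfkfb3 and Epas1, the last with at most 3 counts in a CTC line. This split was chosen after the values were seen and was given no test. Pdgfra, given above, was also higher in CTC 1 and CTC 3 than in CTC 6, and its part in the split was not tested. Among the derived lines, primary 7 was the highest for 9 of the 37 members that reached 1 CPM, metastasis 7 the lowest for 10, and metastasis 5 the highest for 7 and the lowest for 8. The parental library was the lowest of all 10 for 13 members and the highest for 1, Egln1.

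Metastasis against primary asks how the lines from lung differ from those out of fat pad tumours. Of the 6 lower enzymes, 5 had a log2 change below 0 and 1 above, and of the 9 upper enzymes 4 had a change above 0 and 5 below, none passing the test. Pkm had a log2 change of -0.69 (SE 0.21), Eno1 -0.58 (SE 0.24), Gapdh -0.66 (SE 0.24) and Pgk1 -4.42 (SE 1.42). For these 4 of the 6 lower enzymes the groups did not overlap, against 13.6% of all genes. Pgam1 was at -0.62 (SE 0.45) and Eno2 at 0.80 (SE 0.63). Without primary 7 the changes were -0.33 for Eno1, -0.43 for Gapdh and 0.05 for Pgam1, and without primary 5 that of Pgk1 was -2.0. Summed over the lower enzymes without Pgk1, and with Ldha, the level was 4728 CPM in metastasis 3, 4080.3 CPM in metastasis 5 and 5461 CPM in metastasis 7. The same sum was 5821 CPM or more in each primary line and 7043 CPM or more in each CTC line. Pkm, Eno1 and Gapdh, whose groups did not overlap, make up most of this sum, so it is no separate evidence. Ldha had a log2 change of -1.09 (SE 0.40), or -0.72 without primary 7, Car12 of -1.89 (SE 0.52) and Angptl4 of -3.83 (SE 1.16). Pfkm was the only member at an unadjusted p under 0.05 that was higher in metastasis lines, with a log2 change of 1.20 (SE 0.47).

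With edgeR's quasi-likelihood test (Benjamini-Hochberg adjusted), the smallest adjusted p of a member was 0.594, and 0 of 39 members passed, as did 0% of all genes. At an unadjusted p under 0.05 there were 8 members, 1 higher and 7 lower (20.5%), where 8.29% of all genes did. Groups did not overlap for 7 members (17.9%), against 13.6% of all genes, which is near the background. The median log2 change was 0.00 over the members and 0.01 over all genes. DESeq2 called 2 members, Pgk1 (adjusted p 0.0157) and Angptl4 (adjusted p 0.0229), among 135 of all 29999 genes it was given, and limma-voom called 0. Without metastasis 5, the count at an unadjusted p under 0.05 was 4, and the share of all genes 4.31%. The higher share of mitochondrially encoded counts in the metastasis lines, and the lower means of 8 of the 9 epithelial markers, go with this comparison. Both were given above, and their part in the result was not tested.

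**Figure D5:**
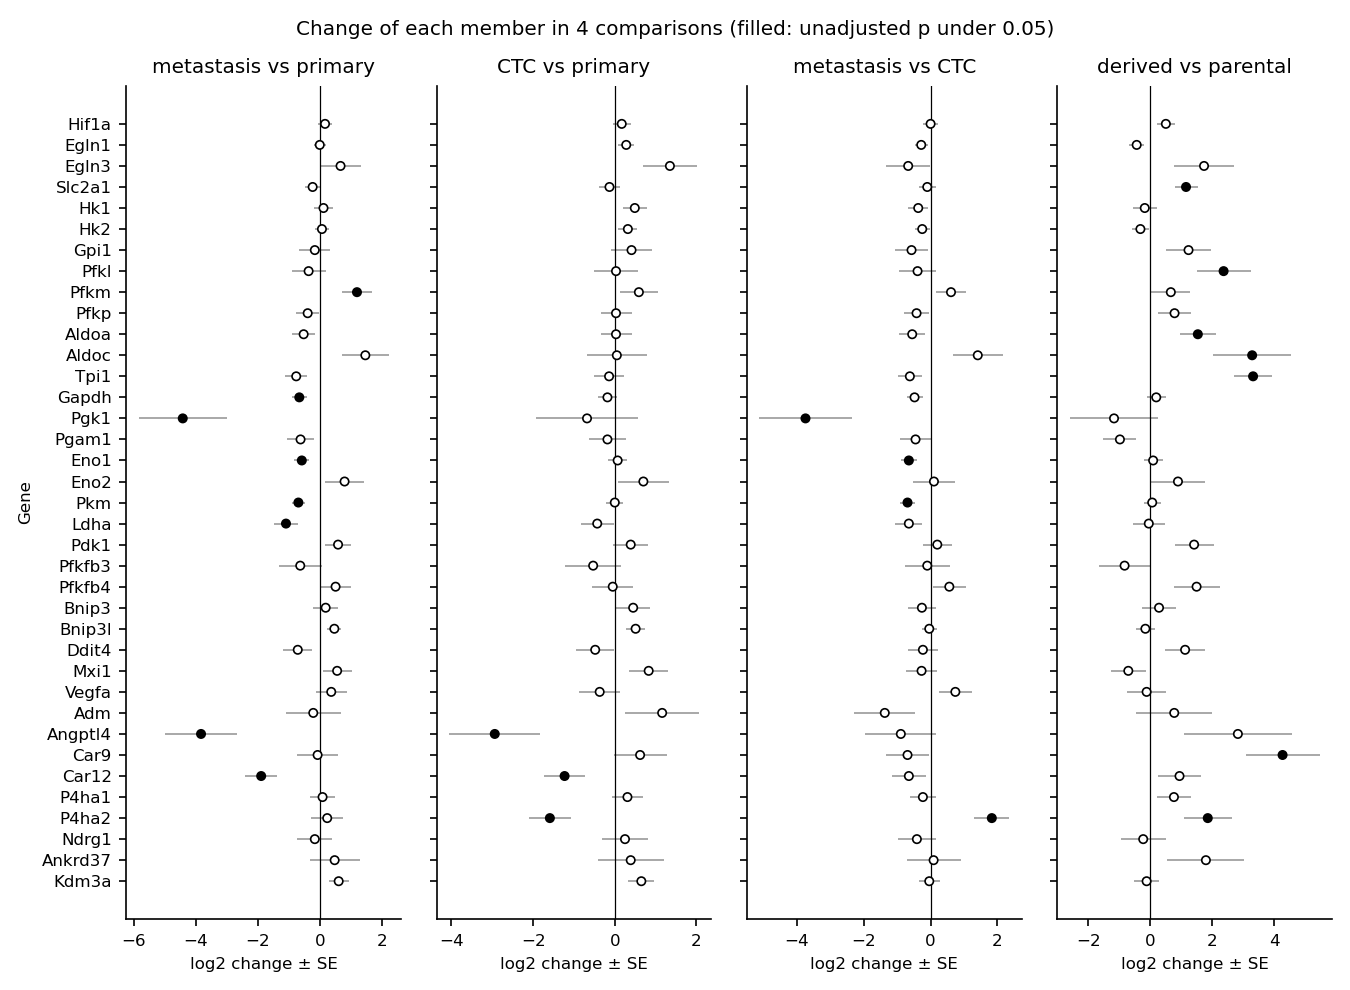
Log2 change of 37 tested members in the 4 comparisons, positive where the first-named group is higher, with bars of 1 standard error. Filled points have an unadjusted p under 0.05 and no member passed after adjustment. Epas1 and Slc16a3, with at most 29 counts, are left out. The filled points of the lower enzymes lie left of 0 in both comparisons of the metastasis lines, and those against the parental line all lie right of 0.

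CTC against primary asks what sets lines from blood apart from fat pad lines. None of the 15 glycolytic enzymes had an unadjusted p under 0.05, where 4.06% of all genes did. None of 15 is near that share. P4ha2 was lower in CTC lines, with a log2 change of -1.59 (SE 0.52), as were Angptl4 at -2.94 (SE 1.12) and Car12 at -1.23 (SE 0.51). P4ha2 (lower) and Egln1 (higher, log2 change 0.28, SE 0.20) were the 2 members whose groups did not overlap. With edgeR's quasi-likelihood test (Benjamini-Hochberg adjusted), 0 of 39 members and 0% of all genes passed, and the smallest adjusted p of a member was 0.994. At an unadjusted p under 0.05 there were 3 members (7.69%), against 4.06% of all genes, and groups did not overlap for 5.13% of members against 7.15% of all genes. DESeq2 and limma-voom called 0 members. That count of 3 became 8 without primary 5, 9 without CTC 6 and 1 without CTC 3, while the share of all genes became 9.19%, 10% and 2.66%. The means of 7 of the 9 epithelial markers given above, Epcam among them, were also lower in CTC lines, while those of Krt8 and Krt18 were higher. The part of these markers was not tested. As an alternative, the number in a title was treated as pairing lines. No CTC line shares a number with a primary line, so a fixed replicate block compares them only through the metastasis lines. With that block the P4ha2 change was 0.56 and that of Car12 was -0.26.

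Metastasis against CTC asks how lung lines differ from lines out of blood, and it shares lines with both comparisons above. Pkm had a log2 change of -0.69 (SE 0.21), Eno1 of -0.65 (SE 0.24) and Pgk1 of -3.74 (SE 1.38), all lower in metastasis lines, and P4ha2 was higher, at 1.83 (SE 0.52). The P4ha2 change was 0.08 with the title number as a fixed replicate block, which rests on CTC 3 and metastasis 3 alone, and 1.14 without metastasis 5. The Pgk1 change was -1.73 without CTC 3 and -2.11 with near copies added. Gapdh, at -0.48 (SE 0.24), and Egln1, at -0.28 (SE 0.20), were lower in every metastasis line without reaching an unadjusted p under 0.05. With edgeR's quasi-likelihood test (Benjamini-Hochberg adjusted), 0 of 39 members passed, against 0.00502% of all genes (1 gene), and the smallest adjusted p of a member was 1.0. There were 4 members at an unadjusted p under 0.05 (10.3%), against 3.29% of all genes. For 6 members (15.4%) the groups did not overlap, against 8.28% of all genes. The median log2 change was -0.27 over the members and 0.00 over all genes. DESeq2 and limma-voom called 0 members, and without metastasis 5 the count of 4 became 2, and the share of all genes 1.87%. With near copies added, Eno1 had a log2 change of -0.38 (SE 0.26) and metastasis 3 overlapped the CTC range.

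Derived against parental asks what changed with passage through the mouse and regrowth. All 8 members at an unadjusted p under 0.05 were higher in the derived lines. They included Tpi1, with a log2 change of 3.31 (SE 0.61), Car9 at 4.26 (SE 1.19), Pfkl at 2.36 (SE 0.87) and Aldoa at 1.53 (SE 0.57). The others were Aldoc at 3.28 (SE 1.26), Slc2a1 at 1.15 (SE 0.37), P4ha2 at 1.85 (SE 0.77) and Slc16a3, given above against a chosen floor. The lower enzymes had no member among them and a median log2 change of 0.08, against 1.23 for the 9 upper enzymes.

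With edgeR's quasi-likelihood test (Benjamini-Hochberg adjusted), Tpi1 had the smallest adjusted p of the members, 0.259, so 0 of 39 passed, against 0.0201% of all genes (4 genes). The share at an unadjusted p under 0.05 was 20.5% of members and 10.3% of all genes. All 9 derived lines lay above or all below the parental library for 15 members (38.5%), against 29.5% of all genes, 14 of the 15 above it. The median log2 change was 0.77 over the members and 0.10 over all genes. DESeq2 called Tpi1 (adjusted p 7.1e-07), Car9 (adjusted p 0.000251) and Aldoc (adjusted p 0.0254), among 610 of all 29999 genes (2.03%). Limma-voom with library weights called Tpi1 (adjusted p 0.0303), with 59 of all 19936 genes (0.296%), and limma-voom without weights called 0.

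Other genes of the same pathways, 105 in a list drawn up for this purpose, were read for comparison, and 87 of them were tested. None passed in any comparison by edgeR's quasi-likelihood test. Of those named below, DESeq2 called Bhlhe40 in both comparisons with primary lines (adjusted p 0.00601 and 0.00954), Pdgfb in CTC against primary (adjusted p 0.0223), and Ldhb (adjusted p 0.00422), Pck2 (adjusted p 0.019) and Pgls (adjusted p 0.0481) in derived against parental. At an unadjusted p under 0.05 there were 12 in metastasis against primary (13.8%, against 8.29% of all genes), 4 higher and 8 lower, with 7 of the lower ones among the 38 tested HIF targets. Bhlhe40, a transcription repressor induced by HIF, was at 53.7, 241 and 204 CPM in primary, 28.4, 37.2 and 36.3 CPM in CTC and 39.1, 35.3 and 26.3 CPM in metastasis lines. Every CTC and metastasis line lay below every primary line for Bhlhe40, with log2 changes of -2.29 (SE 0.49) and -2.31 (SE 0.49). Pdgfb (a platelet-derived growth factor chain) and Fam162a (a mitochondrial HIF target) were also lower in metastasis than in primary lines, with log2 changes of -1.96 (SE 0.60) and -0.86 (SE 0.26). In CTC against primary lines there were 7 such genes (8.05%, against 4.06% of all genes), 2 higher and 5 lower. Pdgfb was lower, with a log2 change of -2.48 (SE 0.61), and Insig2, a brake on sterol synthesis, was higher by 1.41 (SE 0.44), or 2.48 with the fixed replicate block.

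Metastasis against CTC had 3 such genes (3.45%, against 3.29% of all genes), 1 higher and 2 lower, among them Fam162a at -0.60 (SE 0.25) and Ppp1r3c, which had 0 counts in the metastasis lines and at most 0.186 CPM in CTC lines. Against the parental library there were 16 (18.4%, against 10.3% of all genes), 7 higher and 9 lower. The 38 tested HIF targets of the list held 6 of them (15.8%), 1 higher and 5 lower, and had a median log2 change of 0.02. The pentose phosphate list held 4 of the 7 higher ones among its 8 genes, of which 5 had a log2 change above 0 and 3 below, including Pgls, which opens the lactone of the pathway, at 1.03 (SE 0.32). Pck2, the mitochondrial phosphoenolpyruvate carboxykinase, was higher at 2.29 (SE 0.71), Ldhb, the other lactate dehydrogenase subunit, was higher at 4.01 (SE 1.36), and Pdgfb was lower at -2.12 (SE 0.62). The 13 tested genes of HIF control, such as Vhl and Arnt, had none at an unadjusted p under 0.05 in any of the 4 comparisons. Over all genes the share was 8.29% in metastasis against primary and 4.06% in CTC against primary. It was 3.29% in metastasis against CTC and 10.3% in derived against parental. None of 13 is near these shares. Against the parental library, 7 of the 13 (53.8%) had all derived lines on 1 side, 1 above and 6 below, against 29.5% of all genes. Their median log2 change there was -0.39, and 0.10 over all genes.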

How the data were processed

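The authors deposited estimated counts per gene and per transcript, as whole numbers, for 10 libraries. Per the submitters' processing notes the tools were HISAT2 2.1.0, StringTie 2.0.3 and DESeq2 1.26.0, and the genome build GRCm38. The labels give polyA RNA and also a total RNA kit, and do not state the use of strand, so overlapping genes, which 15 of the members have, are uncertain.

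Counts were scaled to CPM with TMM factors. Named genes passing filterByExpr were tested with edgeR 4.0.16 (R 4.3.3) in 1 quasi-likelihood fit of 4 groups without a block, with Benjamini-Hochberg adjustment over 19936 genes at 0.05. The test was tested on simulated counts. DESeq2 1.42.0, limma 3.58.1, other scalings and filters, the title number as a replicate block, and leaving out each derived line were alternatives. Exon lengths came from GENCODE M21. Near copies were transcripts matched by BLAST+ 2.17.0 at 90% identity or more over at least 300 bases, a choice made after seeing the data. Promoter sequences are from RefSeq.

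The members and lists were chosen with earlier results of these data known. Values by line are given for members at an unadjusted p under 0.05 with groups that do not overlap, for Hif1a, Epas1, Slc2a1, Ldha, Car9 and Vegfa, and for the member of each role with the widest ratio between derived lines. Tpi1, Pfkl and Aldoa were added after their values were seen. Of other pathway genes, up to 4 per comparison were named, and a gene that this rule also picks is not reported here.

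Lines that share a title number in different groups correlated in their deviations from the group means at 0.319 (number 5), 0.12 (number 7) and 0.406 (number 3), while the median of the other pairs was -0.0493. Pairs with different numbers reached 0.506 (CTC 6 with metastasis 7) and 0.43 (primary 8 with CTC 6). Because each pair with a shared number was over 0.1, the number was used as a pairing in alternatives, on the values alone, since no label explains it. Several pairs with different numbers were also over 0.1, so the values do not single out the shared numbers.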

Additional observations from a re-analysis of the deposited data

How the results depend on the processing

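Each comparison was recomputed under up to 23 other settings, of which the sum of near copies by sequence was chosen after seeing the data. Of the counts of members called, 3 moved: with DESeq2 it was 2 in metastasis against primary and 3 in derived against parental, and with library weights 1 in derived against parental. The title number as a random replicate block (estimated correlation 0.484, limma-voom) gave 13 members at an unadjusted p under 0.05 in metastasis against primary and 5 in derived against parental, where 16.2% and 9.27% of all genes were. As a fixed replicate block it leaves 1 residual degree of freedom, and only CTC 3 and metastasis 3 link the CTC lines to the others. The median log2 change of the members was then -0.31 in metastasis against primary, and the P4ha2 change reversed to 0.56 in CTC against primary. The paired fits changed no call of a member. Library weights gave 8 and 9 members at an unadjusted p under 0.05 in the comparisons of CTC with primary and with metastasis, where 14.5% and 7.84% of all genes were. Leaving out a line gave 4 to 11 in metastasis against primary, where 4.31% to 14.6% of all genes were. It gave 1 to 9 in CTC against primary, where 2.33% to 10% of all genes were. In metastasis against CTC it gave 2 to 6, where 1.87% to 5.13% of all genes were. In derived against parental it gave 7 to 11, where 7.84% to 15.9% of all genes were. The cause of these shifts was not tested. Of 41 named changes recomputed, Pgam1 in metastasis against primary also reversed, to 0.05 without primary 7, and leaving out a line took it as low as -1.06. Ranges were wide for Pgk1, from -5.18 to -2.0 against primary and from -4.5 to -1.73 against CTC, for P4ha2 in metastasis against CTC, from 0.08 to 2.2, for Eno2 in metastasis against primary, from 0.32 to 1.59, and for Car12 in CTC against primary, from -1.59 to -0.26. They were narrower for Pkm in metastasis against primary, from -0.80 to -0.54, and for Tpi1 in derived against parental, from 3.22 to 3.40. Every setting uses the same single parental library, so the Tpi1 range cannot show an error in its parental level. How many parental Tpi1 reads went to assembled transcripts is not known. The levels of Epas1, Slc2a3 and Slc16a3, and the low values of Angptl4, rest on few counts. How many of their reads went to assembled transcripts is also not known.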
